A study of Mus musculus with 3 samples.

Results

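The vacuolar ATPase (V-ATPase) subunits and the ion channels and exchangers of lysosomes were examined in cells of the mouse vestibule, the part of the inner ear that senses balance. The genes were all protein-coding rows of the deposited gene table with a symbol starting Atp6v or Atp6ap, together with Tcirg1, Clcn3, Clcn4, Clcn5, Clcn6, Clcn7, Ostm1, Mcoln1, Mcoln2, Mcoln3, Tpcn1, Tpcn2 and Tmem175. They came to 39 genes of the 57180 in the table, 21608 of which are protein-coding. From general knowledge of the gene family, 13 of them were classed as tissue-restricted isoforms and 24 as ubiquitous ones. Atp6ap1l and Atp6v1fnb were in neither class. The restricted class is not uniform, since Tcirg1, Clcn4 and Atp6v0e2 are known from several tissues.

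The study sequenced polyadenylated RNA of cells named for their look of black balls, in 3 libraries of 1 group with no control group. The labels describe wild-type (WT) mouse vestibular cells and give macrophages as the cell type and immune cells in the cell line field, and the title of the series names melanocytes instead. The protocol counts 18 cells, taken from 9 mice at 3 mice a group, and their RNA was copied with the SMART-Seq HT kit, which primes on poly(A) tails and amplifies by PCR. The sources used here do not give the number of cells behind each library. No label ties a library to particular animals, so p-values below speak of the spread over these libraries alone, and that spread may be technical.

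The V-ATPase pumps protons into lysosomes, endosomes and melanosomes. Its V1 sector, in the cytosol, splits ATP with the A and B subunits and turns a central stalk made with D and F, while E and G form the outer stalks and C and H join the sector to the membrane. Its V0 sector, in the membrane, carries the protons through a ring of c and c'' subunits and the large a subunit, with d and e attached. Lysosomal exchangers and channels of the CLC, TRPML, TPC and TMEM175 families move chloride, calcium, sodium, potassium and protons across the same membrane. Several subunits exist as a ubiquitous isoform and as isoforms known from particular cells: Atp6v1b1 and Atp6v0a4 from proton-secreting cells of the kidney and inner ear, Tcirg1 (the a3 subunit) and Atp6v0d2 from osteoclasts and macrophages, Atp6v1g2 from neurons, and Mcoln3 (TRPML3) from hair cells and pigment cells.

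By the test described below, tissue-restricted isoforms were higher than their ubiquitous partner in 2 pairs, Mcoln3 against Mcoln1 and Clcn4 against Clcn3. By the same test, 26.4% of protein-coding genes were higher than Mcoln1 and 25.8% higher than Clcn3. Neither call held without replicate 1 or without replicate 3. The Clcn4 call also ended without replicate 2 and when gene length was not used. The DNA upstream of the 4 genes of these pairs is printed below so that the promoters of each pair can be set side by side. Each line gives the 250 bases before the annotated start, 5′ to 3′ on the gene's strand, from RefSeq on build GRCm38.p6, in lower case with any CACGTG in capitals. CACGTG is the core of the E-box that the transcription factors MITF and TFEB are known to bind. The stretches lie at chr3:146121541-146121790 on the plus strand for Mcoln3, chr8:3500269-3500518 on the plus strand for Mcoln1, chr7:7299558-7299807 on the minus strand for Clcn4 and chr8:60983312-60983561 on the minus strand for Clcn3. Clcn4 and Clcn3 each have 2 windows in the RefSeq promoter table, and the more upstream start is shown.
Mcoln3: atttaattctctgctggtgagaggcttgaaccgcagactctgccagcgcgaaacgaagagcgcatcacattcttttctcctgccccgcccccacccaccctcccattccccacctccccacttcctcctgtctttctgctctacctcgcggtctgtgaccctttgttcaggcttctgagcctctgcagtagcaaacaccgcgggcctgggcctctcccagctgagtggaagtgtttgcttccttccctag
Mcoln1: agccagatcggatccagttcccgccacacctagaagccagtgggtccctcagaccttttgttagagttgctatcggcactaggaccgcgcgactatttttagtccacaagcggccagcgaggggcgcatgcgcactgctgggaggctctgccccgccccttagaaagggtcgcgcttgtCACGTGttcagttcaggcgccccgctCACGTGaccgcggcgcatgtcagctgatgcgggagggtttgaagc
Clcn4: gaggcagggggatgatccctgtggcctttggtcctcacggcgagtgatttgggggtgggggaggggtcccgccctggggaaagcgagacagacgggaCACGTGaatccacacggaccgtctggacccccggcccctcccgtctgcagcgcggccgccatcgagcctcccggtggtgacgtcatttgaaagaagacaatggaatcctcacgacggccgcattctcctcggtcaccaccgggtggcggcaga
Clcn3: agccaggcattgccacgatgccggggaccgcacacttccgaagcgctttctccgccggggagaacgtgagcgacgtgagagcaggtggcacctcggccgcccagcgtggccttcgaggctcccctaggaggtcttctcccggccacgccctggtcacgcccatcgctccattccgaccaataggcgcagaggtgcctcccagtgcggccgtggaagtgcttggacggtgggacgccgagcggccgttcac
Upstream of Mcoln3 no CACGTG was found, against 2 upstream of Mcoln1, whose first bases lie 71 and 45 bases before the start. The Clcn4 stretch held 1, starting 153 bases before the start, and the Clcn3 stretch held none. A match is a description of the letters, and it was not related to the levels.

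Over windows of 300 bases, 250 before and 50 after the start, 31 of the 39 genes matched an entry in the promoter table. CACGTG, which reads the same on both strands, stood in a window of 2 of 12 matched restricted isoforms and 7 of 18 matched ubiquitous ones. That made 9 of 31 genes (29.0%), beside 7.15% of all 32851 promoter windows and 9.57% of 15537 protein-coding genes. The longer TCACGTGA, which also reads the same on both strands and contains CACGTG, stood in a window of none of the restricted isoforms and of 6 ubiquitous ones. It was held by 19.4% of the matched genes, beside 0.974% of all windows and 1.56% of protein-coding genes. Those 6 were Mcoln1, Atp6v0e, Atp6v0d1, Atp6v1a, Clcn6 and Clcn7.

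Levels are given as TPM (transcript abundance per length, with a fixed total in each library), obtained by rescaling the deposited FPKM, so that genes can be compared per length. The libraries held 18460546, 15086854 and 14095521 counts, and the 39 genes took 0.548%, 0.590% and 0.484% of them in replicates 1, 2 and 3. At these depths 3 counts correspond to 0.163, 0.199 and 0.213 CPM (scaled by library total, with no gene length), a limit that covers counting error only, since PCR copies carried no molecular identifiers. Across all genes, log2(TPM + 1) correlated between libraries with Pearson coefficients between 0.892 and 0.919, which is a description over genes and not over replicates. All 10 macrophage markers passed the test against 1 TPM described next, and so did 8 of 9 melanocyte markers, 8 of 8 hair cell markers and 6 of 6 markers of vestibular dark cells and strial marginal cells, which summed to 246 to 340 TPM. Fewer passed of the other lists, 4 of 7 neuron, 3 of 8 osteoclast and 1 of 8 proton-secreting cell markers. Of protein-coding genes tested, 50.5% passed. In such RNA, a smaller share of cells expressing a gene and less of its RNA per cell cannot be told apart.

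A gene was called above 1 TPM, or above 10 TPM, by limma's one-sided moderated test of its mean log2(TPM + 1) over the 3 libraries, with p-values adjusted by Benjamini-Hochberg over the 27265 genes counted in any library and called under 0.05. Of the 39 genes, 36 had a count and were tested, and 27 were called above 1 TPM. Among all genes tested 37.6% were called, and among the protein-coding genes tested 50.5%. Against 10 TPM, 17 of the 36 genes tested were called, beside 19.2% of protein-coding genes tested. Restricted isoforms made up 7 of the 27 (of 13 in the class) and ubiquitous isoforms 20 (of 24). Above 10 TPM stood 3 restricted isoforms, Atp6v0e2, Mcoln3 and Atp6v0d2, and 14 ubiquitous ones. The median of mean log2(TPM + 1) was 3.98 over the 36 genes tested, 0.31 SD over the 3 libraries, beside 2.32 over protein-coding genes and 1.49 over all genes tested. Within it, the median was 2.87 for restricted isoforms with a count (2.55 with the restricted genes at 0 included) and 5.42 for ubiquitous ones. With any 1 replicate left out, 4 restricted isoforms passed 1 TPM, and with replicate 1 left out 9 genes passed 10 TPM.

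**Figure D1:**
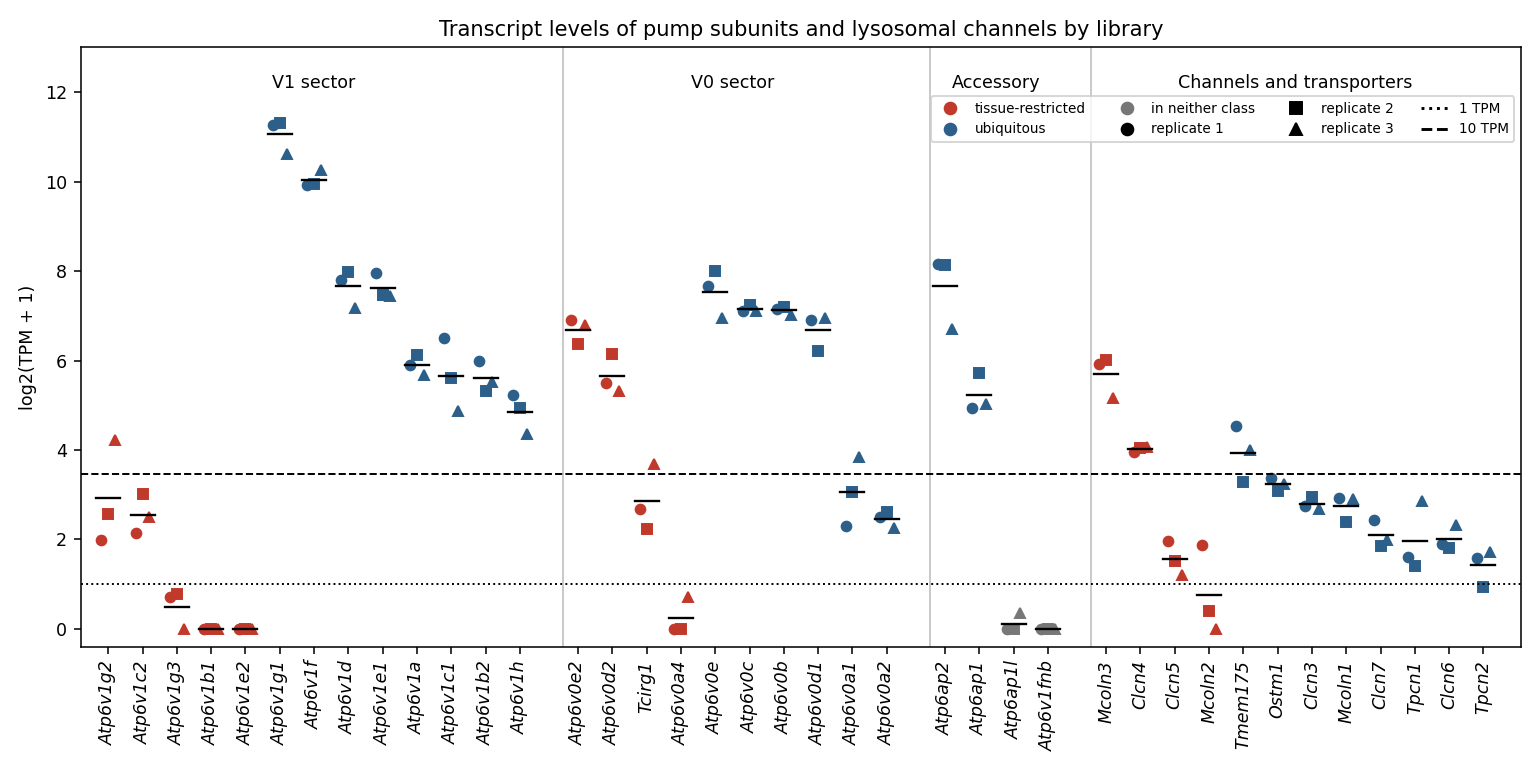
Transcript level, log2(TPM + 1), of the 39 genes in each of the 3 libraries, grouped by sector or role, with restricted isoforms (red) left of ubiquitous ones (blue) and genes of neither class in grey. Each symbol is a library, each bar the mean, and the dotted and dashed lines mark 1 and 10 TPM. Atp6v1g1 and Atp6v1f stand at the top, Mcoln3 leads the channels, and Atp6v1b1, Atp6v1e2 and Atp6v1fnb lie at 0.

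Each restricted isoform was compared with its ubiquitous partner within each library. The difference of log2(TPM + 1), restricted minus ubiquitous, was tested by limma, two-sided, with the same difference fitted for every gene against that partner and Benjamini-Hochberg adjustment over all genes. Of the 13 pairs 11 could be tested. The restricted isoform was lower in 5 (Atp6v1c2, Atp6v1g2, Atp6v1g3, Atp6v0a4 and Mcoln2), higher in 2 (Mcoln3 and Clcn4), and not past the threshold in 4 (Tcirg1, Atp6v0d2, Atp6v0e2 and Clcn5). The remaining restricted genes, Atp6v1b1 and Atp6v1e2, had no count in any library. By the same test, 24.2% (for Atp6v0a1) to 99.6% (for Atp6v1g1) of protein-coding genes were lower than the partners of those 5. Higher than Mcoln1 were 26.4% of protein-coding genes, and higher than Clcn3 25.8%.

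**Figure D2:**
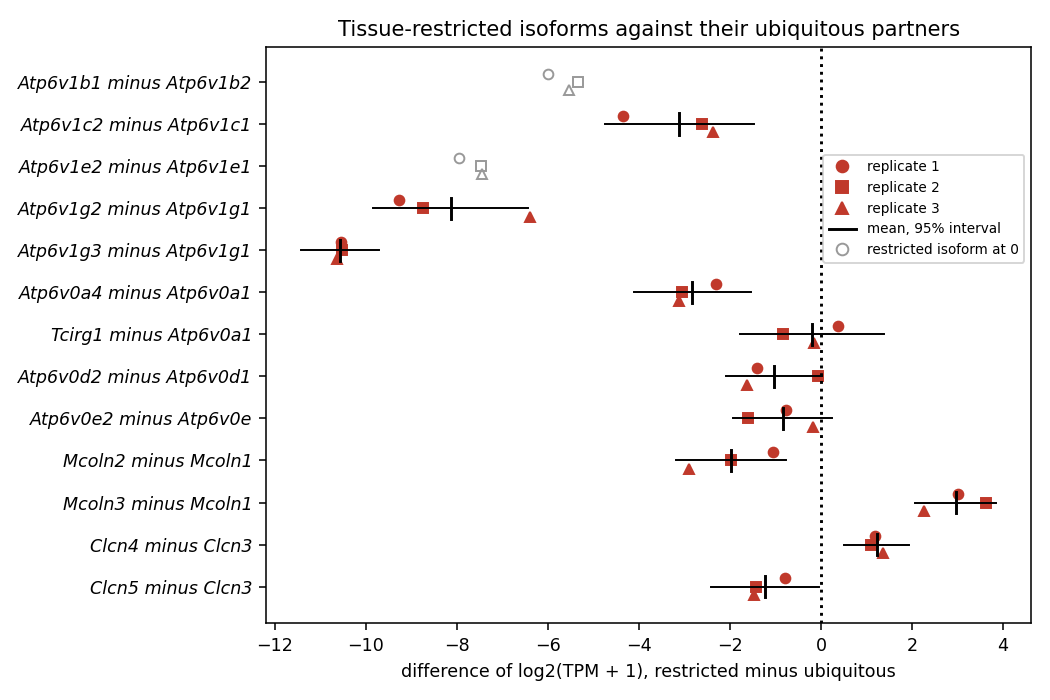
Difference of log2(TPM + 1), restricted isoform minus ubiquitous partner, for 13 pairs. Filled symbols are the 3 libraries, vertical bars the mean and horizontal lines its 95% interval from limma, and open grey symbols mark restricted genes with no count, which have no test. Mcoln3 and Clcn4 lie right of the dotted line at 0 in all 3 libraries, and the intervals of Tcirg1, Atp6v0d2 and Atp6v0e2 cross it.

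In the V1 sector, 2 of 5 restricted isoforms and all 8 ubiquitous ones were called above 1 TPM. The 8 ubiquitous ones were also called above 10 TPM. Of protein-coding genes tested, 50.5% were called above 1 TPM and 19.2% above 10 TPM. The B subunit shares the ATP-binding sites with A. Its renal and inner ear isoform Atp6v1b1 had 0 counts in each library, against 62.6, 39.2 and 45.1 TPM in replicates 1, 2 and 3 for Atp6v1b2. With a floor of 3 counts per library and the longest annotated transcript as length, Atp6v1b1 was at least 410-fold lower than Atp6v1b2 in every library. This bound covers counting error only. It used 2825 bp for Atp6v1b2, and the 6554 bp implied by the deposited values would lower it. Of 8 marker genes of proton-secreting cells, the defining Foxi1 and also Slc4a9, Hepacam2, Rhbg and Rhcg had no count, and 1, Slc26a4, was above 1 TPM, with 66.1, 25.0 and 22.2 TPM. The summed level of the list lay between 22.6 and 70.8 TPM. Atp6v1b2 shares 590 bp of its span with Slc18a1, which had 75, 3 and 0 counts against 3044, 1737 and 1955 for Atp6v1b2.

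The catalytic A subunit has a single gene, Atp6v1a, at 58.5, 68.5 and 49.8 TPM. The C subunit is the piece that leaves when the pump comes apart. Its restricted isoform Atp6v1c2 had 3.41, 7.05 and 4.63 TPM, against 89.2, 48.0 and 28.3 TPM for Atp6v1c1. Atp6v1c2 was lower in all 3 libraries and the levels did not overlap. The difference was -3.11 (SE 0.64, adjusted p = 0.00666 by limma), beside 77.7% of protein-coding genes that were lower than Atp6v1c1 by the same test. Atp6v1c2 made up 3.68%, 12.8% and 14.1% of the C subunit transcripts. Without replicate 1 the adjusted p was 0.0729, and without replicate 2 it was 0.117. Atp6v1c2 itself was above 1 TPM (limma adjusted p = 0.0127), a call that ended when any of the 3 replicates was left out, and 50 bp of its span are shared with Pdia6, which had 3197 to 3623 counts against 94 to 177.

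The E and G subunits pair up in the outer stalks. The testis isoform Atp6v1e2 had no count, against 246, 176 and 173 TPM for Atp6v1e1. With the same floor and kind of length, Atp6v1e2 was at least 953-fold lower in every library, again for counting error only. That bound used 2928 bp for Atp6v1e1, and the 5730 bp implied by the deposited values would lower it. Atp6v1g2, the neuronal G isoform, had 2.99, 4.91 and 17.6 TPM, and Atp6v1g3, an isoform known from kidney, had 0.643, 0.706 and 0 TPM (9, 9 and 0 counts), against 2458, 2519 and 1576 TPM for Atp6v1g1. Both restricted G isoforms lay far below Atp6v1g1 in every library. The differences were -8.13 (SE 0.67, limma adjusted p = 6.54e-05) for Atp6v1g2 and -10.57 (SE 0.33, limma adjusted p = 2.70e-06) for Atp6v1g3, where 99.6% of protein-coding genes were lower than Atp6v1g1. The Atp6v1g3 value contains a 0 and so depends on the pseudocount of 1. Atp6v1g2 was above 1 TPM (limma adjusted p = 0.0190), and the call ended with a pseudocount of 5 and when any of the 3 replicates was left out.

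Replicate 3 held the highest level of Atp6v1g2, 17.6 TPM, and the neuron markers summed to 311 TPM there, against 70.8 and 71.0 TPM in replicates 1 and 2. Of the 7 neuron markers 4 were called above 1 TPM and none was at 0 in all libraries. Their part in the level of Atp6v1g2 was not tested. Atp6v1g2 also shares 2133 bp with Nfkbil1, which had 146, 45 and 156 counts against 140, 209 and 736 for Atp6v1g2, and whether strand was used in counting is not stated in the sources used here.

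Atp6v1g1 (chr4:63463009-63468987 on GRCm39) had the highest level of all 39 genes, at 2184 ± 528 TPM (SD, n = 3). Atp6v1f, whose product sits in the central stalk, followed with 966, 986 and 1227 TPM. Both have processed pseudogenes that are nearly the same in sequence and drew counts. Gm13453, a copy of Atp6v1g1, held 5.51% to 7.13% of the counts of the pair, and Gm9349, a copy of Atp6v1f, held 7.22% to 7.98%, and how reads that match both a gene and its copy were assigned is not stated, so both levels are uncertain. The stalk subunit Atp6v1d had 224, 252 and 144 TPM, and the regulatory subunit Atp6v1h had 36.7, 29.5 and 19.5 TPM.

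In the V0 sector, 3 of 4 restricted isoforms and all 6 ubiquitous ones were called above 1 TPM, beside 50.5% of protein-coding genes tested. Above 10 TPM were 2 restricted and 4 ubiquitous ones, beside 19.2%. The a subunit carries the half-channels for protons and directs the pump to a membrane. The renal and inner ear isoform Atp6v0a4 had 0, 0 and 0.647 TPM (0, 0 and 26 counts), against 3.93, 7.34 and 13.3 TPM for Atp6v0a1. The levels did not overlap, and the difference was -2.83 (SE 0.50, limma adjusted p = 0.0149), where 24.2% of protein-coding genes were lower than Atp6v0a1. That value contains zeros. The adjusted p was 0.0594 with a pseudocount of 5 and between 0.0877 and 0.366 with 1 replicate left out. Atp6v0a4 shares 1413 bp with D630045J12Rik, which had 67, 149 and 125 counts.

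Tcirg1, the a3 isoform needed for acid secretion by osteoclasts, had 5.40, 3.68 and 11.9 TPM, against the 3.93, 7.34 and 13.3 TPM of Atp6v0a1. Tcirg1 was the higher of the pair in replicate 1 and the lower in replicates 2 and 3, and the ranges overlapped. Its difference was -0.20 (SE 0.62, 95% interval -1.79 to 1.38, limma adjusted p = 0.801), and against the other ubiquitous isoform, Atp6v0a2, it was 0.41 (limma adjusted p = 0.490). Atp6v0a2 had 4.65, 5.08 and 3.79 TPM. Tcirg1 supplied 57.9%, 33.4% and 47.2% of the transcripts of Tcirg1 and Atp6v0a1 together. Tcirg1 passed the test against 1 TPM (limma adjusted p = 0.00908), a call that ended when any of the 3 replicates was left out, as did that of Atp6v0a1 without replicate 2 or 3 and that of Atp6v0a2 without replicate 1 or 2.

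The d subunit couples the central stalk to the ring. Atp6v0d2 (chr4:19876841-19922605 on GRCm39), known from osteoclasts and macrophages, had 44.2, 69.6 and 38.8 TPM, against 120, 72.9 and 122 TPM for Atp6v0d1. Atp6v0d2 was lower in all 3 libraries, by least in replicate 2, and the 2 genes' ranges did not overlap. The difference was -1.04 (SE 0.41, 95% interval -2.10 to 0.02), which did not pass (limma adjusted p = 0.0564), where 89.8% of protein-coding genes were lower than Atp6v0d1. It passed with the longest annotated transcript as length (-1.30, limma adjusted p = 0.0267) and without replicate 2 (-1.52, limma adjusted p = 0.0240), among other settings. Atp6v0d2 supplied 27.0%, 48.8% and 24.1% of the d subunit transcripts.

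Of the 8 osteoclast markers set beside Tcirg1 and Atp6v0d2, 3 were above 1 TPM, and Dcstamp, Ocstamp, Oscar and Calcr had no count. The list summed to 29.4 to 61.9 TPM over the libraries. The 10 macrophage markers summed to 8832, 5522 and 6310 TPM. Their part in the levels of Tcirg1 and Atp6v0d2 was not tested.

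The small e subunit had a large restricted share. Atp6v0e2 (chr6:48514549-48518735 on GRCm39), an isoform known from brain, had 119, 82.1 and 109 TPM, against 201, 253 and 123 TPM for Atp6v0e. Atp6v0e2 was the lower in each library and the ranges did not overlap. Its mean of 103 ± 18.9 TPM (SD, n = 3) was the highest of all restricted isoforms. The difference was -0.85 (SE 0.43, 95% interval -1.94 to 0.25), which did not pass (limma adjusted p = 0.107), where 93.4% of protein-coding genes were lower than Atp6v0e. In CPM, without gene length, it was -1.44 and passed (limma adjusted p = 0.0134). Atp6v0e2 supplied 37.1%, 24.5% and 47.1% of the e subunit transcripts.

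The proton ring subunits were close to each other, with 136, 150 and 136 TPM for Atp6v0c (chr17:24382840-24388676 on GRCm39) and 142, 145 and 129 TPM for Atp6v0b. Atp6v0c has a processed pseudogene, Atp6v0c-ps2 (chr6:37783021-37783485 on GRCm39), that is 99.8% identical over 465 bp and drew 3598, 3319 and 3082 counts, against 4606, 4601 and 4097 for Atp6v0c. The pseudogene thus held 41.9% to 43.9% of the counts of both. The treatment of reads that match several places is not stated in the sources used here, so the level of Atp6v0c is uncertain. For Atp6v0b the length behind the deposited FPKM was 4989 bp, 4.99 times its longest annotated transcript of 1000 bp, and per longest transcript its mean would stand higher, at 467 TPM.

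Summed over isoforms, the 13 kinds of subunit spanned from 2461, 2525 and 1593 TPM for G to 14.0, 16.1 and 29.7 TPM for a. F (966 to 1227 TPM) came next after G, then e (232 to 335), D (144 to 252), E (173 to 246), d (142 to 164), c (136 to 150), c'' (129 to 145), C (32.9 to 92.6), A (49.8 to 68.5), B (39.2 to 62.6), H (19.5 to 36.7) and a (14.0 to 29.7). In this order of means, the ranges of e and D overlapped, as did D and E, d and c, c and c'', C and A, A and B, and H and a. The ranges did not overlap between G and F, F and e, E and d, c'' and C, or B and H. The pump holds several copies of some subunits and a single copy of others, and transcript sums say nothing of protein amounts. Restricted isoforms made up 38.6%, 22.9% and 42.3% of the a transcripts, and 0.148%, 0.222% and 1.11% of the G transcripts. With the longest annotated transcript as length, c'' moved above e, D, E, d and c, to a mean of 467 TPM. By that length E also stood above D (means of 261 and 207 TPM) and c above d (168 and 129 TPM). A and B (81.9 and 76.3 TPM) then stood above C (65.7 TPM).

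**Figure D3:**
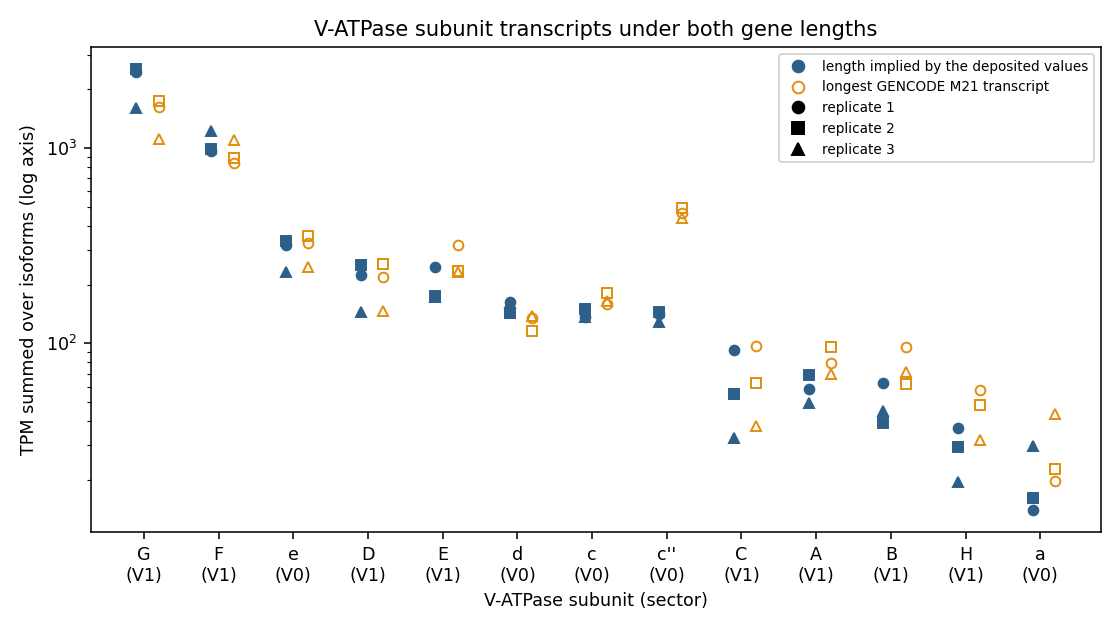
Summed TPM over the isoforms of each of 13 V-ATPase subunits on a log axis, by library (symbols), with the gene length implied by the deposited values (filled, left) and with the longest GENCODE M21 transcript as length (open, right). Subunits run from the highest mean, G at 2193 TPM, to the lowest, a at 19.9 TPM, and c'' moves most with the choice of length.

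The accessory proteins of the pump were called above 1 and 10 TPM in 2 of 3 cases, beside 50.5% and 19.2% of protein-coding genes tested. Atp6ap2, the prorenin receptor, had 285, 279 and 104 TPM, and Atp6ap1 (Ac45), which takes part in assembly, had 29.9, 51.9 and 31.4 TPM. Replicate 3 was the low one for Atp6ap2 and replicate 2 the high one for Atp6ap1. Atp6ap1l, a gene similar to Atp6ap1, had 0, 0 and 0.285 TPM (5 counts in replicate 3) and did not pass. Atp6v1fnb, which lies next to Atp6v1f, had no count in any library and was not tested.

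Among the channels and exchangers, 2 of 4 restricted members and 4 of 8 ubiquitous ones were called above 1 TPM. Mcoln3 alone of these 12 was called above 10 TPM. Together 6 of 12 were called above 1 TPM and 1 of 12 above 10 TPM. These shares were no larger than the 50.5% and 19.2% of protein-coding genes tested. TRPML channels release calcium from endosomes and lysosomes. Mcoln3 (chr3:145823205-145847561 on GRCm39) had 60.0, 63.3 and 35.0 TPM, and its close neighbour on the chromosome Mcoln2 (chr3:145855588-145901268), known from lymphoid and myeloid cells, had 2.69, 0.328 and 0 TPM (99, 11 and 0 counts), against 6.62, 4.22 and 6.51 TPM for Mcoln1 (chr8:3550457-3565232). Mcoln3 stood above Mcoln1 and Mcoln2 below it in each library, with no overlap. The promoters of Mcoln3 and Mcoln1 are those printed at the start.

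The difference between Mcoln3 and Mcoln1 was 2.96 (SE 0.35, 95% interval 2.07 to 3.85, limma adjusted p = 0.00119), where 26.4% of protein-coding genes were higher than Mcoln1. Mcoln3 was 9.06, 15.0 and 5.37 times Mcoln1 in TPM and made up 90.1%, 93.8% and 84.3% of the 2 genes' transcripts. The direction held in each setting tried. The value was 1.74 (limma adjusted p = 0.00744) with the longest annotated transcript as length and 1.82 in CPM, and the call ended without replicate 1 (limma adjusted p = 0.0862) or replicate 3 (limma adjusted p = 0.0606). Mcoln2 minus Mcoln1 was -1.98 (SE 0.47, limma adjusted p = 0.0160), where 31.0% of protein-coding genes were lower than Mcoln1, and it ended when any of the 3 replicates was left out (limma adjusted p between 0.0817 and 0.166). Mcoln1 itself was above 1 TPM (limma adjusted p = 0.00549), but not without replicate 1 (limma adjusted p = 0.0713) or replicate 3 (limma adjusted p = 0.0523).

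Mcoln3 is known from hair cells and pigment cells, and markers of both were present. The 8 hair cell markers summed to 498, 359 and 342 TPM and the 9 melanocyte markers to 570, 687 and 700 TPM. Mitf, the melanocyte marker that did not pass, had 3.01, 0.817 and 0.492 TPM. The part of either cell type in the level of Mcoln3 was not tested.

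CLC proteins of endosomes and lysosomes exchange chloride for protons. Clcn4 (chr7:7285308-7303850 on GRCm39) had 14.4, 15.6 and 15.7 TPM and Clcn5, known from endosomes of the kidney tubule, had 2.90, 1.86 and 1.32 TPM, against 5.76, 6.76 and 5.44 TPM for Clcn3 (chr8:61363423-61436334). Clcn4 was above Clcn3 and Clcn5 below it in each library, with no overlap, and Clcn4 varied least of all members that were called, by 1.09-fold between its lowest and highest library. For Clcn4 the difference was 1.22 (SE 0.28, 95% interval 0.51 to 1.93, limma adjusted p = 0.0130), where 25.8% of protein-coding genes were higher than Clcn3, and it held 69.7% to 74.2% of the transcripts of both. Clcn4 and Clcn3 differed by 0.50 when gene length was not used (CPM, limma adjusted p = 0.118), and the call also ended when any of the 3 replicates was left out. Clcn5 minus Clcn3 was -1.24 (SE 0.46, 95% interval -2.42 to -0.06), which did not pass after adjustment (limma adjusted p = 0.0636), where 30.8% of protein-coding genes were lower than Clcn3. It passed in several settings, among them the longest annotated transcript as length (-2.15, limma adjusted p = 0.00995).

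Clcn7 and its partner Ostm1, whose loss in mice gives dense bone and pale fur, had 4.40, 2.63 and 2.99 TPM and 9.39, 7.48 and 8.45 TPM. Ostm1 passed the test against 1 TPM, and Clcn7 lay at the threshold (limma adjusted p = 0.0508) and passed in 5 of the settings tried. Clcn6, known from late endosomes of neurons, had 2.72, 2.49 and 4.02 TPM and did not pass (limma adjusted p = 0.0674), though it passed in 4 of the settings tried. Clcn5 did not pass against 1 TPM either (limma adjusted p = 0.247), except in CPM. Clcn3 passed (limma adjusted p = 0.00372), but not without replicate 2 (limma adjusted p = 0.0505).

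The potassium and proton channel of lysosomes, Tmem175, was the highest of the ubiquitous channels with 22.3, 8.78 and 15.0 TPM. Tmem175 shares 2090 bp with Dgkq, which had no count in any library, and whether strand was used to assign reads there is not stated. The two-pore channels release calcium and sodium, and Tpcn2 also acts in melanosomes. Tpcn1 had 2.04, 1.65 and 6.31 TPM (limma adjusted p = 0.123) and Tpcn2 had 2.00, 0.916 and 2.32 TPM (limma adjusted p = 0.353), so neither was called above 1 TPM. Both passed in CPM, and Tpcn1 also among genes counted in all libraries.

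Of the 27 genes called above 1 TPM, 19 stayed within 2-fold between the lowest and highest library, and the median ratio was 1.68. Atp6v1g2 differed most, by 5.90-fold, followed by Atp6v0a1 (3.39), Tcirg1 (3.23), Atp6v1c1 (3.15), Atp6ap2 (2.74) and Tmem175 (2.54). Atp6v1g2, Atp6v0a1 and Tcirg1 were highest in replicate 3, while Atp6v1c1 and Atp6ap2 were lowest there. The summed neuron, osteoclast, melanocyte and dark cell markers were also highest in replicate 3, and the macrophage, hair cell and proton-secreting cell markers in replicate 1. Single markers did not all follow these sums. Of the macrophage markers, Lyz2, Ctss and Cd68 peaked in replicate 1, and Mrc1 in replicate 2. C1qa, C1qb, C1qc, Tyrobp, Csf1r and Adgre1 peaked in replicate 3. Among osteoclast markers only Ctsk peaked in replicate 3, and Acp5, Nfatc1 and Mmp9 in replicate 1. Of the melanocyte markers, Dct, Mlana, Sox10 and Slc24a5 peaked in replicate 3. Mitf peaked in replicate 1 and Pmel, Tyr, Slc45a2 and Tyrp1 in replicate 2. Of the hair cell markers, Pou4f3, Calb2 and Otof peaked in replicate 1, Slc17a8, Ocm and Tmc1 in replicate 2, and Myo6 and Myo7a in replicate 3. The dark cell markers Kcne1, Kcnq1 and Bsnd peaked in replicate 3, and Slc12a2, Atp1b2 and Kcnj10 in replicate 2. All neuron markers peaked in replicate 3 except Stmn2 and Rbfox3, which peaked in replicate 2. The part of these cell types in the levels was not tested. The lowest level fell in replicate 3 for 14 of the 27, in replicate 2 for 7 and in replicate 1 for 6. The median SD of log2(TPM + 1) between libraries was 0.42 for these 27 genes, beside 0.48 for all protein-coding genes called.

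**Figure D4:**
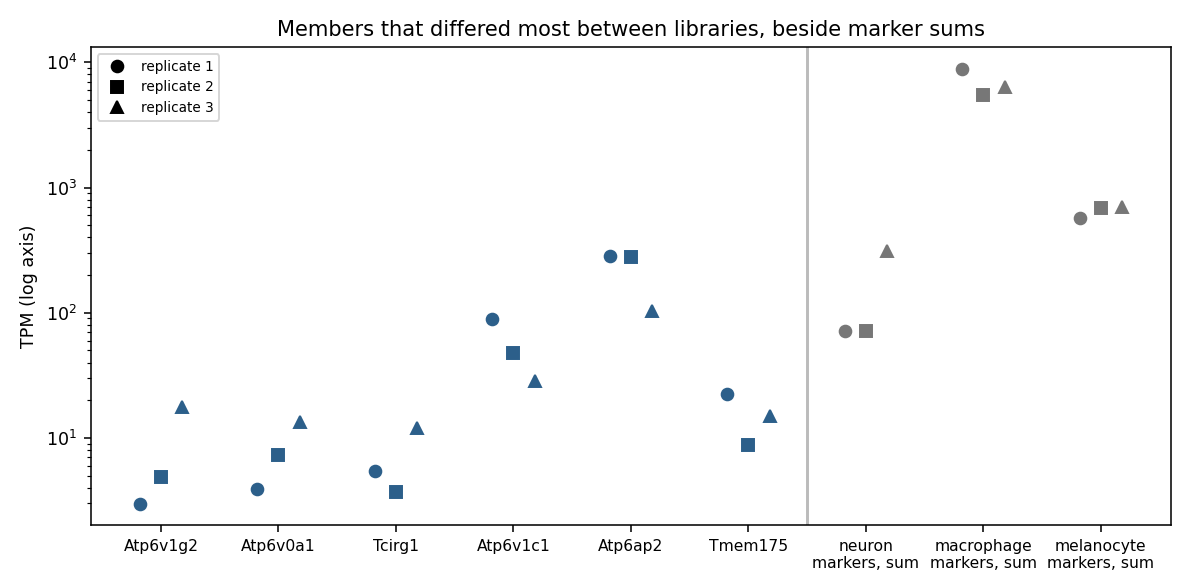
TPM on a log axis in each library (symbols) for the 6 called genes that differed most between libraries, left of the grey line, and for the summed markers of neurons, macrophages and melanocytes, right of it. Atp6v1g2, Atp6v0a1, Tcirg1 and the neuron and melanocyte sums are highest in replicate 3, and Atp6v1c1 and Atp6ap2 are lowest there.

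Genes that build, hold or use the pump were counted from lists beside the 39 genes. Of these, 28 genes were measured and 21 were called above 1 TPM, beside the 50.5% of protein-coding genes. All 3 assembly factors of the V0 sector were called, led by Tmem199 (58.5 ± 12.9 TPM, SD, n = 3) and Ccdc115 (30.3 ± 1.75 TPM). Of the RAVE complex and its partners, which join V1 to V0, 3 of 4 were called, with Rogdi at 61.4, 31.5 and 45.9 TPM and Wdr7 at 5.83, 5.79 and 3.44 TPM, while Dmxl1 had 2.81, 4.18 and 1.96 TPM (limma adjusted p = 0.0864). Among the TLDc proteins, which bind V1, 1 of 5 was called, Oxr1, at 9.18, 9.09 and 1.49 TPM, and Meak7, Ncoa7, Tbc1d24 and Tldc2 did not pass, with mean levels of 2.43, 1.40, 0.425 and 0.389 TPM.

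The Ragulator and Rag proteins, which dock on the pump and signal amino acid supply to mTORC1, were called in 9 of 10 cases. Lamtor5 had 401, 445 and 353 TPM and Lamtor2 had 178, 132 and 355 TPM, and the arginine sensor Slc38a9 did not pass at 4.47, 1.58 and 3.17 TPM (limma adjusted p = 0.0967). Tmem9b (166, 161 and 79.5 TPM) and Tmem9 (44.2, 35.9 and 52.4 TPM), partners of lysosomal CLC exchangers, were both called. Of 4 other lysosomal channels 3 were called, led by Tmem63a at 6.29, 5.22 and 22.8 TPM and the ATP-gated P2rx4 at 6.74, 3.63 and 8.77 TPM, while Kcnma1 had 0.0485, 0.353 and 0.625 TPM and did not pass. Of the 21 calls, those of Oxr1, Wdr7, Dmxl2, Tmem63a, P2rx4 and Lrrc8a ended without at least 1 of the replicates, those of Dmxl2 and Lrrc8a without any of the 3 and that of Oxr1 without replicate 1 or 2 (limma adjusted p = 0.273 and 0.262).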

How the data were processed

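Counts and FPKM per gene and library were deposited by the authors in 1 table, per the file headers, with coordinates on GRCm39, which the submitters' processing notes name beside HISAT2, StringTie and edgeR without versions, roles or order. FPKM deposited by the authors equalled the count divided by the library total and a fixed length per gene. That length had a median of 1.38 times the longest GENCODE M21 transcript over 25984 genes and 1.95 times over 36 of the genes reported, and it exceeded the union of all M21 exons by over 1% for 32 of these 36 (median ratio 1.30). What the length represents is not stated in the sources used here, and a longer one gives a lower TPM. TPM is FPKM brought to 1 common total per library, analysed as log2(TPM + 1) with a pseudocount of 1.

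The tests used limma 3.58.1 in R 4.3.3, intercept-only with a mean-variance trend. For differences between 2 genes the prior degrees of freedom were held to those of the fit of levels (3.06). This cap was not planned and was added because the partner's shared noise made limma take them as infinite. The uncapped fit is an alternative. In it 6 restricted isoforms were lower than their partner and 2 higher, and Atp6v0d2 passed as lower (limma adjusted p = 0.00376). The scripts were tested on simulated data. Total counts of 14095521 to 18460546 set the depth, and every value column was matched to a library. Near-identical copies were searched with BLAST+ 2.17.0 (at least 90% identity over 200 bp). Other alternatives were pseudocounts of 0.1 and 5, CPM, genes counted in all libraries, no trend, edgeR 4.0.16 and DESeq2 1.42.0 scaling factors, each replicate left out, Atp6v0a2 as partner, and, chosen after seeing the data, the longest M21 transcript as length and the median without Atp6v0c. Every member is named with its values. Of each pathway list, the 2 genes highest in mean TPM and every gene that did not pass are named, and marker genes only beside a member. The members, classes, pairs and lists were chosen with earlier results of these data known. Promoters are from RefSeq on GRCm38.p6. No sample was left out.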

Additional observations from a re-analysis of the deposited data

How the results depend on the processing

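The count of genes above 1 TPM moved by less than 1.5 times in every setting tried. With 1 replicate left out, 9 to 16 genes passed 10 TPM, 4 restricted isoforms passed 1 TPM in each case, 2 to 3 restricted isoforms were lower than their partner and 0 to 1 higher. Beside the counts of 0, limma found 1 higher at an unadjusted p under 0.05, without replicate 1 and likewise without replicate 3. In CPM 1 restricted isoform was higher, Mcoln3. The median level of the genes, 3.98, was 4.31 with a pseudocount of 5, 6.001 in CPM, 5.04 over genes counted in all libraries and 4.78 with the longest M21 transcript as length. No difference between a restricted isoform and its partner that passed the test changed direction in any setting tried. The cause of these shifts was not tested, beyond the fewer libraries that leaving one out gives. No paired analysis was possible because the labels give 1 group, so no groups share replicate numbers, and differences between 2 genes were already taken within each library. Atp6v1g3, Atp6v0a4, Atp6ap1l and Mcoln2 rest on few counts and had none in at least 1 library. The part of depth in this was not tested. The small number of libraries limits every call.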
